A study of Mus musculus with 24 samples.

Results

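The transcripts described here are those of the NF-kB transcription factor subunits and of the IkB proteins that bind them, in SIM-A9 cells, a line of mouse microglia. The members were listed by gene symbol: the classical IkB genes Nfkbia, Nfkbib and Nfkbie, the nuclear IkB genes Nfkbiz and Nfkbid, and the subunit genes Nfkb1, Nfkb2, Rel, Rela and Relb. They are 10 of the 54838 genes in the count table, and all 10 had enough reads to be tested. Poly-A RNA was sequenced from 8 groups of 3 libraries, all taken at 2 h from wells that had been in serum-free medium for 2 h beforehand. For every group, control included, 30 µL of a 10-fold concentrate added to 270 µL of medium is listed. What was added to the control wells is not given in the sources used here. The groups were control, LPS (bacterial lipopolysaccharide, the study's positive control for inflammation), (GT)6 SWCNT and COOH SWCNT (single-walled carbon nanotubes, the latter carboxylated), AAV (adeno-associated virus), and 3 dyes, of which Fura-2 is a calcium indicator and the others are DiBASC2 and Di-2-ANEPEQ. The doses of the treatments are not given in the sources used here, and the names of both dyes are spelled in several ways across the labels.

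NF-kB factors are dimers of Rel-family subunits. In resting cells the classical IkB proteins hold them in the cytoplasm. Signals from Toll-like receptors, such as the LPS receptor of microglia and macrophages, lead the IKK kinases to mark IkB for ubiquitination and breakdown, and the freed dimers enter the nucleus. Several genes of the IkB and NF-kB families are themselves switched on by NF-kB, and newly made IkB-alpha is a textbook example of negative feedback. The nuclear IkB proteins act instead on dimers already bound to DNA.

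RefSeq promoter windows of GRCm38.p6, from 250 bases before to 50 bases after an annotated start site, were matched by symbol for 7 of the 10 genes, with several starts for some of them. Nfkb1, Nfkbiz and Relb were not matched. The windows were searched on both strands for the 10-base NF-kB consensus, and overlapping matches were merged. Of all 32851 windows in the table, 2779 (8.459%) held a match. By gene, 2581 of 27025 (9.55%) held a match. Among the members 7 of 11 windows held a match, and these belonged to 5 of the 7 genes. The windows are not independent. Some windows of Nfkb2 overlap and share the same match, which is counted for each of them. The stretches below are shown because they hold the consensus of the factor whose subunits and inhibitors are described. Each is printed 5′ to 3′ on the strand of the gene, in lower case, with the bases of the match in capitals.
Nfkbia, chr12:55492647-55492696, minus strand: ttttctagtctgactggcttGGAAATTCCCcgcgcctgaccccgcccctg
Nfkbie, chr17:45555574-45555623, plus strand: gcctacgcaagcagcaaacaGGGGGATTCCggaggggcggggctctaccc
Nfkbid, chr7:30422160-30422209, plus strand: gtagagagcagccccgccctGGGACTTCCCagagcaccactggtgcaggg
Nfkbid, chr7:30422205-30422254, plus strand: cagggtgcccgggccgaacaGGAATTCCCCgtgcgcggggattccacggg
Nfkb2, chr19:46304678-46304728, plus strand: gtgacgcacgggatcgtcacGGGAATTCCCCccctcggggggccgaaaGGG
Rel, chr11:23771031-23771081, minus strand: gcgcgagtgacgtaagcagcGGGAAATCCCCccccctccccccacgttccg

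The capitals begin 29 bases before the start site in Nfkbia, 106 in Nfkbie, 92 in Rel and 39 before the first of 3 annotated starts in Nfkb2. In Nfkbid they begin 226 and 181 bases before the second of its 3 annotated starts. The trailing capitals of the Nfkb2 stretch belong to its next match, which is not printed in full. The matches in the windows of its other starts are not printed either. No match lay in the windows of Nfkbib and Rela, which says only that these letters are not in those windows. A match is a description of the sequence and was not tied to binding in these cells.

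**Figure D1:**
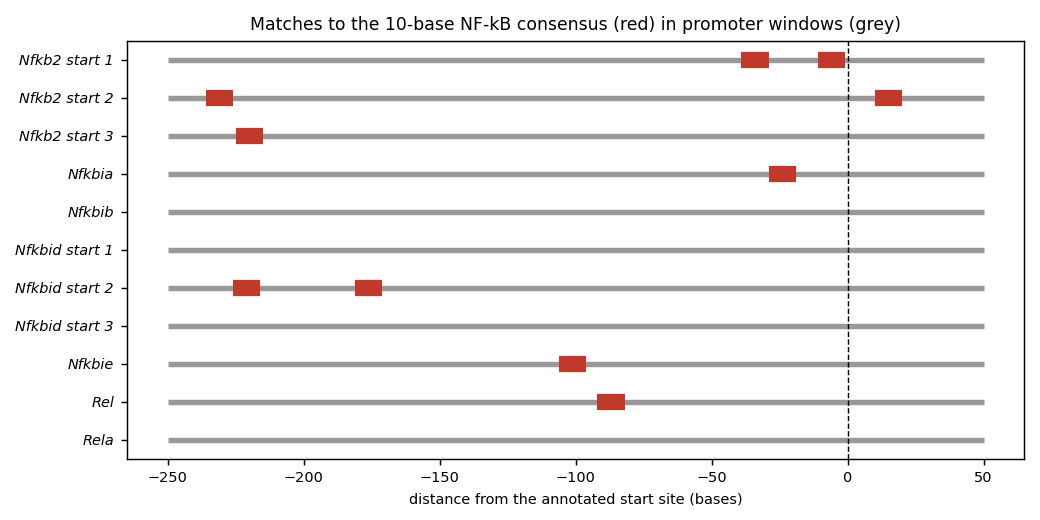
Matches to the 10-base NF-kB consensus (red) in the 11 promoter windows of 7 genes (grey), by distance in bases from each annotated start site (dashed line). The windows reach from 250 bases before to 50 bases after the start, and 7 of the 11 hold at least 1 match. Some windows of Nfkb2 overlap and share the same match, which is counted for each of them.

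All 10 genes are protein-coding in GENCODE M21 (GRCm38). The classical IkB genes lie apart, Nfkbia (ENSMUSG00000021025.8) at chr12:55489410-55492647, Nfkbib (ENSMUSG00000030595.15) at chr7:28758251-28767512 and Nfkbie (ENSMUSG00000023947.8) at chr17:45555703-45563169. Of the nuclear IkB genes, Nfkbiz (ENSMUSG00000035356.17) is at chr16:55811375-55838899 and Nfkbid (ENSMUSG00000036931.15) at chr7:30421732-30428746. The precursor subunits are Nfkb1 (ENSMUSG00000028163.17) at chr3:135584655-135691547 and Nfkb2 (ENSMUSG00000025225.14) at chr19:46304320-46312385. The Rel proteins are encoded by Rel (ENSMUSG00000020275.9) at chr11:23736847-23770970, Rela (ENSMUSG00000024927.7) at chr19:5637483-5648130 and Relb (ENSMUSG00000002983.17) at chr7:19606217-19629438. Exons of Nfkbib overlap those of Ccer2 and Sirt2, and exons of Nfkb2 overlap those of AC114539.1 and Psd, in each case on the other strand. Whether reads were counted by strand is not given in the sources used here, so the values of these 2 genes are uncertain.

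Libraries held between 17364272 and 29259221 counts, and the smallest count of any member in any library was 264. The labels do not say whether the 3 libraries of a group came from separate cultures, so the p-values measure the spread between these libraries, which may be technical. Of 11 microglia and macrophage markers, 8 had a median of at least 5 CPM (counts scaled to library size with TMM factors), among them Csf1r at 517 CPM and Cd68 at 836 CPM. Tmem119 and P2ry12, which define homeostatic microglia in tissue, were low, at medians of 3.7 and 2.15 CPM. Aif1, the remaining one of the 11 under 5 CPM, had a median of 4.08 CPM. Of 12 markers of other brain cells, 11 had a median under 1 CPM, the exception being Mbp at 4.54 CPM, and all 6 markers of other leukocytes were under 1 CPM. The summed microglia and macrophage markers lay between 2220 and 2490 CPM in every group. In such bulk samples a lower level may come from fewer cells with the transcript or from less of it per cell. These cannot be told apart.

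After 2 h of LPS all 10 transcripts were higher than in control, and in all 10 the LPS libraries lay above every control library. They were called at an adjusted p under 0.05 by edgeR's quasi-likelihood test with Benjamini-Hochberg adjustment over 13116 genes, the source of every adjusted p of a gene given here. The same rule called 28.3% of all genes tested, 13.8% as higher. Groups did not overlap for 38.3% of all genes. The largest adjusted p among the 10 was 3.17e-12. The median log2 fold change of the 10 was 1.17, against -0.01 over all genes. The genes differed widely in size of response, from 1.57-fold for Rela to 52.8-fold for Nfkbiz.

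Nfkbia encodes IkB-alpha, the main fast-turnover inhibitor of RelA and c-Rel dimers. Its level was 110, 115 and 113 CPM in the control libraries and 682, 750.5 and 760 CPM in the LPS libraries. The groups were far apart, and the log2 fold change was 2.70 ± 0.05 (SE), or 6.48-fold. Nfkbie encodes IkB-epsilon, which also holds dimers in the cytoplasm and is resynthesised more slowly. It read 29.7, 28.9 and 31.6 CPM in control and 74.7, 72.7 and 79.8 CPM in LPS, a log2 fold change of 1.33 ± 0.07. Nfkbib encodes IkB-beta, usually described as the classical inhibitor least dependent on NF-kB for its synthesis. It read 51.7, 52.7 and 53.9 CPM in control and 77.5, 84.7 and 93.1 CPM in LPS, a log2 fold change of 0.69 ± 0.06. Thus the classical inhibitors rose by 1.61-fold for Nfkbib, 2.52-fold for Nfkbie and 6.48-fold for Nfkbia.

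The nuclear IkB gene Nfkbiz, which encodes IkB-zeta, a co-activator needed for secondary response genes such as Il6, had the largest fold change of the 10. It stood at 14.5, 17 and 16.2 CPM in control and at 842, 838 and 853 CPM in LPS. The LPS libraries lay within a narrow band, and the log2 fold change was 5.72 ± 0.05, with an adjusted p of 3.95e-42. Nfkbid encodes IkBNS, a nuclear IkB that represses or aids NF-kB target genes depending on the gene. It read 29.3, 26.6 and 24.9 CPM in control and 81.1, 83.9 and 81.4 CPM in LPS, a log2 fold change of 1.61 ± 0.06.

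Among the subunits, Rel, which encodes c-Rel, stood apart. It read 59.3, 67.7 and 67.8 CPM in control and 323, 291 and 297 CPM in LPS, a log2 fold change of 2.22 ± 0.05. Every LPS library was above every control library, as for the other 4 subunits. Nfkb1 encodes p105, the precursor of p50, and Nfkb2 encodes p100, the precursor of p52. Nfkb1 read 205, 210.5 and 210.2 CPM in control and 405, 406 and 410 CPM in LPS (log2 fold change 0.96 ± 0.04). Nfkb2 read 92.9, 93.1 and 93.3 CPM in control and 181, 190 and 189 CPM in LPS, a 2.01-fold rise. The 2 precursor transcripts thus rose by nearly the same factor, since Nfkb1 was 1.95-fold of control. Relb encodes the partner of p52 in the non-canonical pathway. It read 43.4, 42.1 and 41.9 CPM in control and 72.5, 75.1 and 73.8 CPM in LPS (log2 fold change 0.80 ± 0.05). Rela encodes p65, the subunit most used to follow NF-kB activation. It had the smallest change of the 10, from 82.3, 79.7 and 80.8 CPM to 120, 128 and 132 CPM (log2 fold change 0.65 ± 0.04).

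**Figure D2:**
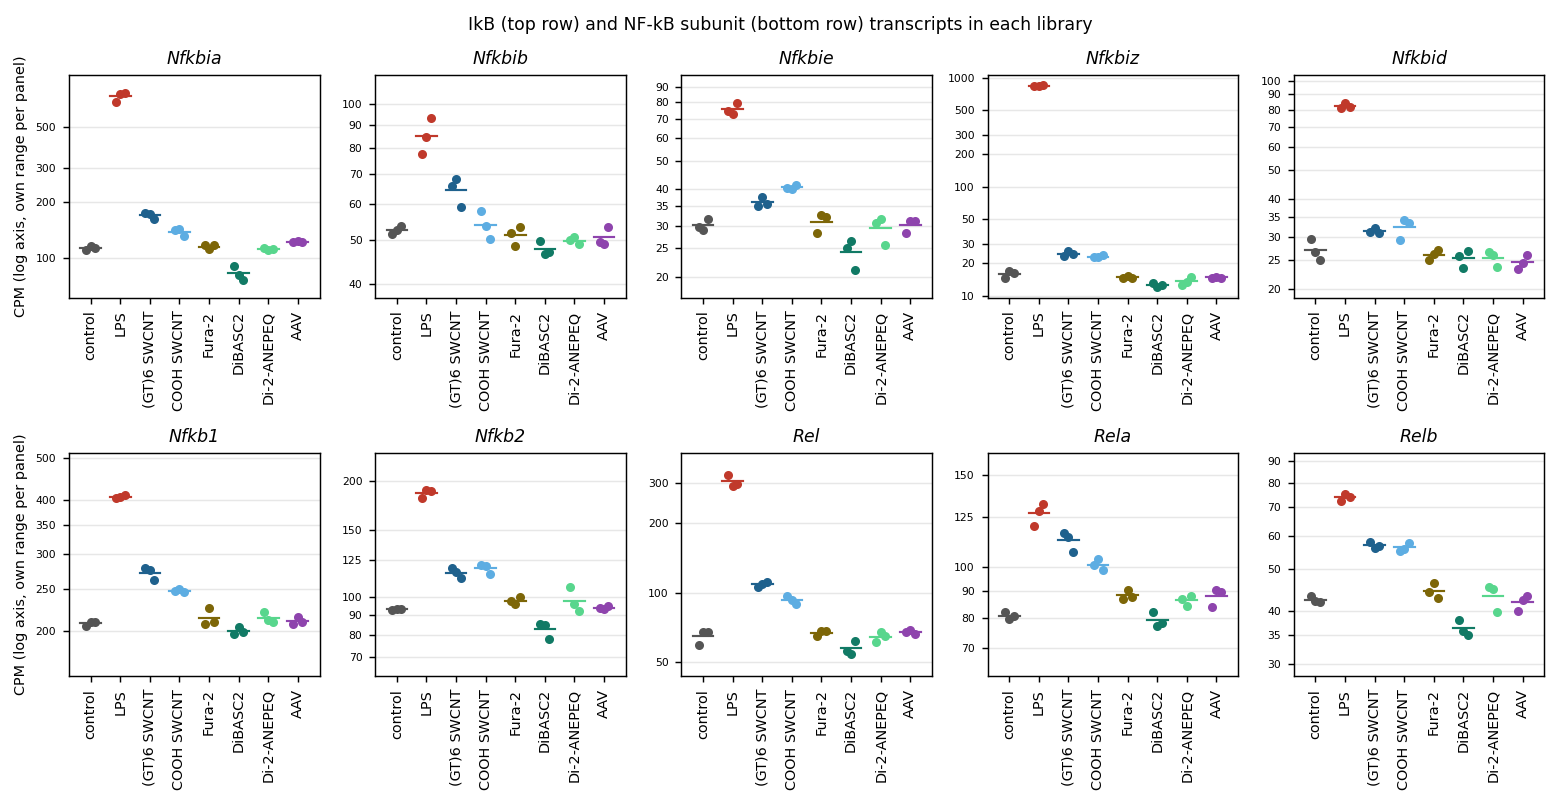
Level of each IkB (top row) and NF-kB subunit (bottom row) transcript in CPM, on a log axis with its own range in each panel, for the 8 groups; points are the 3 libraries and lines their mean. The LPS libraries are highest in all 10 panels, the nanotube groups lie between LPS and control for most genes, and DiBASC2 has the lowest mean in 9 panels, all but Nfkbid.

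The nanotubes raised most of the same transcripts by much smaller amounts. In (GT)6 SWCNT all 10 were called higher than control, where 20.4% of all genes were called and 9.9% were called higher. The groups did not overlap for any of the 10, while 34.3% of all genes had no overlap. Their median log2 fold change was 0.41 (all genes -0.02). In COOH SWCNT 9 of the 10 were called higher, where 20% of all genes were called and 9.39% were called higher. Groups did not overlap for 8 of the 10, against 34.4% of all genes, and the median log2 fold change was 0.34 (all genes -0.00). All treatments are set against the same 3 control libraries, so these comparisons share any deviation of those controls.

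Rel had the largest change in (GT)6 SWCNT, at 106, 109.5 and 112 CPM, a log2 fold change from control of 0.74 ± 0.05. In COOH SWCNT it stood at 96.8, 92.6 and 89.4 CPM (log2 fold change 0.51 ± 0.05). Both nanotube groups lay above all control libraries and below all LPS libraries. Nfkbiz read 22.9, 25.9 and 23.9 CPM in (GT)6 SWCNT and 22.4, 22.6 and 23.5 CPM in COOH SWCNT. These were log2 fold changes of 0.60 ± 0.06 and 0.52 ± 0.06, above every control library. Nfkbia read 175, 172 and 161 CPM in (GT)6 SWCNT (log2 fold change 0.58 ± 0.05) and 140, 143 and 132 CPM in COOH SWCNT (0.29 ± 0.05). The 2 nanotube groups did not overlap for this inhibitor.

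Of the other subunits, Rela read 116, 114.5 and 107 CPM in (GT)6 SWCNT and 101, 104 and 98.9 CPM in COOH SWCNT. The log2 fold changes of Rela from control were 0.48 ± 0.04 and 0.32 ± 0.04. For Nfkb1 the log2 fold changes were 0.39 ± 0.04 in (GT)6 SWCNT and 0.25 ± 0.04 in COOH SWCNT. Relb and Nfkb2, the subunits of the non-canonical pathway, had log2 fold changes of 0.42 ± 0.05 and 0.32 ± 0.04 in (GT)6 SWCNT. In COOH SWCNT they had 0.41 ± 0.05 and 0.35 ± 0.04. Nfkbie, at 35, 37.7 and 35.6 CPM in (GT)6 SWCNT and 40.55, 40.2 and 41.3 CPM in COOH SWCNT, was the classical inhibitor whose mean was higher with COOH SWCNT. Its log2 fold changes from control were 0.26 ± 0.07 and 0.44 ± 0.07.

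The largest adjusted p among the members was that of Nfkbib in COOH SWCNT and that of Nfkbid in (GT)6 SWCNT. Next in (GT)6 SWCNT was Nfkbie (adjusted p = 0.00775), which stayed called, at up to 0.0456, when single libraries were left out. Nfkbib was called in (GT)6 SWCNT, at 65.9, 68.2 and 59.1 CPM and a log2 fold change of 0.29 ± 0.06. In COOH SWCNT it read 58, 53.8 and 50.2 CPM, overlapped the control libraries and was not called, with a log2 fold change of 0.03 (95% interval -0.09 to 0.16, adjusted p = 0.754). Nfkbid was called in (GT)6 SWCNT, at 31, 32.1 and 30.8 CPM (log2 fold change 0.22 ± 0.07, adjusted p = 0.0188). That call was lost without control replicate 3 (adjusted p = 0.0949) or without (GT)6 SWCNT replicate 2 (adjusted p = 0.0672). In COOH SWCNT it read 29.1, 34.1 and 33.4 CPM and was called (log2 fold change 0.25 ± 0.07, adjusted p = 0.00554), although its lowest library lay within the control range.

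**Figure D3:**
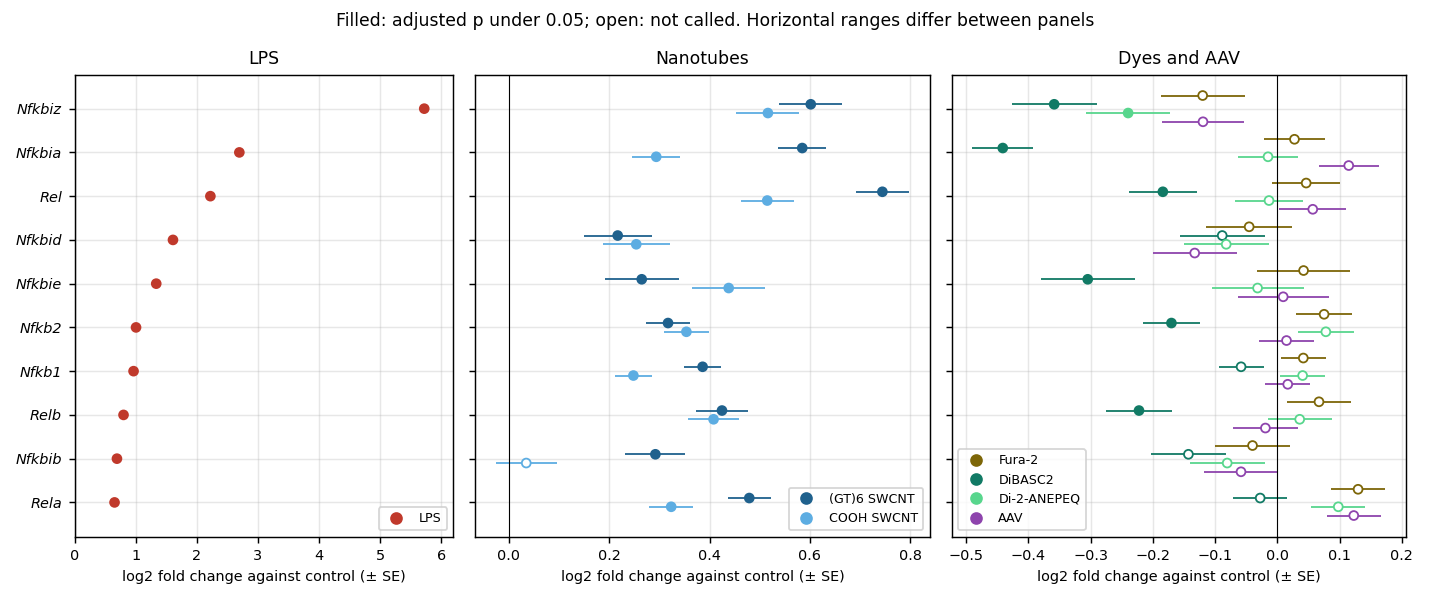
Log2 fold change of each gene against control (points) with its standard error (bars), in LPS, the nanotube groups, and the dyes and AAV; filled points had an adjusted p under 0.05, and the horizontal ranges differ between panels. Nfkbiz reaches 5.72 in LPS, the nanotube values lie between 0.03 and 0.74, and the called dye values are all negative.

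Direct tests set the nanotubes against LPS. All 10 transcripts were lower in (GT)6 SWCNT than in LPS, where 21.6% of all genes were called and 11.9% were called lower. All 10 were also lower in COOH SWCNT than in LPS, where 37.8% of all genes were called and 19.7% were called lower. The gap was widest for Nfkbiz, at a log2 difference of -5.12 ± 0.05 for (GT)6 SWCNT and -5.21 ± 0.05 for COOH SWCNT. Nfkbia was next, at -2.11 ± 0.05 and -2.40 ± 0.05, followed by Rel at -1.48 ± 0.05 and -1.71 ± 0.05. For (GT)6 SWCNT the smallest gap was that of Rela, at -0.17 ± 0.04 (adjusted p = 0.00191). Rela was 1.57-fold of control in LPS and 1.39-fold in (GT)6 SWCNT, whereas Nfkbiz was 52.8-fold and 1.52-fold. Relb and Nfkbib followed Rela, with log2 differences of -0.37 ± 0.05 and -0.40 ± 0.06 between (GT)6 SWCNT and LPS. The order of the genes by size of response therefore differed between the treatments: Nfkbiz led and Rela was last in LPS, while in (GT)6 SWCNT Rel led and Nfkbid was last. The last places are not resolved. In LPS, Rela had 0.65 ± 0.04 and Nfkbib 0.69 ± 0.06. In (GT)6 SWCNT, Nfkbid had 0.22 ± 0.07 and Nfkbie 0.26 ± 0.07.

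Set against COOH SWCNT, (GT)6 SWCNT had higher levels of 5 of the 10 transcripts, where 21.4% of all genes were called and 11.9% were called higher. These were Nfkbia (log2 difference 0.29 ± 0.05), Nfkbib (0.26 ± 0.06), Rel (0.23 ± 0.05), Rela (0.16 ± 0.04) and Nfkb1 (0.14 ± 0.04). They are the genes of the classical inhibitors IkB-alpha and IkB-beta and of the canonical subunits p65, c-Rel and p105. For the non-canonical subunits no difference was called, with intervals of -0.12 to 0.05 for Nfkb2 and -0.08 to 0.12 for Relb on the log2 scale. Nor was one called for Nfkbiz (-0.03 to 0.20) or Nfkbid (-0.17 to 0.10). Nfkbie differed in the other direction, by -0.17 ± 0.07, which was not called (adjusted p = 0.0746) but was with upper-quartile factors (adjusted p = 0.0416) and in a fit of only the 2 groups (adjusted p = 0.0266). Over the alternatives the log2 difference ran from -0.058 to 0.084 for Nfkb2 and from -0.004 to 0.124 for Relb. For Nfkb1 it ran from 0.117 to 0.249. Whether canonical and non-canonical subunits differ from each other was not tested.

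DiBASC2 stood apart from the other dyes, since 6 of the 10 transcripts were called lower than control and the other 4 also had negative estimates. Of all genes, 5.47% were called in this comparison and 3.64% were called lower. Groups did not overlap for 7 of the 10 transcripts, against 22.6% of all genes. The median log2 fold change of the 10 was -0.18 (all genes -0.00). Nfkbia read 90.8, 81.6 and 76.6 CPM, all below the lowest control library at 110 CPM. Its log2 fold change was -0.44 ± 0.05 (adjusted p = 7.05e-08). Nfkbiz read 13, 11.9 and 12.5 CPM, below every control library, a log2 fold change of -0.36 ± 0.07 (adjusted p = 0.000701). These 2 inhibitors kept their calls in every alternative tried.

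The other 4 calls in DiBASC2 were smaller and each was lost in several alternatives. Nfkbie read 25.1, 26.5 and 21.1 CPM (log2 fold change -0.30 ± 0.08, adjusted p = 0.0102). Its call was lost without control replicate 3 (adjusted p = 0.0694) or DiBASC2 replicate 3 (adjusted p = 0.125). Relb read 38, 35.9 and 35.1 CPM (-0.22 ± 0.05, adjusted p = 0.00701), and was not called without control replicate 1 (adjusted p = 0.0611) or DiBASC2 replicate 3 (adjusted p = 0.0563). Nfkb2 read 85.3, 84.7 and 78 CPM (-0.17 ± 0.05, adjusted p = 0.0178). It was not called without control replicate 1, 2 or 3 (adjusted p = 0.0796, 0.0636 and 0.0615) or DiBASC2 replicate 3 (adjusted p = 0.175). Rel read 55.7, 54.3 and 62 CPM and overlapped control (-0.18 ± 0.05, adjusted p = 0.0383). It was not called without control replicate 2 or 3 (adjusted p = 0.196 and 0.179) or DiBASC2 replicate 1 or 2 (adjusted p = 0.109 and 0.17). Both Nfkb2 and Rel also missed the threshold with upper-quartile factors (adjusted p = 0.0572 and 0.0924), and Rel in a fit of only the 2 groups (adjusted p = 0.0691). The summed microglia and macrophage markers of the DiBASC2 libraries lay between 2220 and 2310 CPM, beside 2250 to 2300 CPM in control.

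DiBASC2 was also compared with the other dyes, without the control libraries. Against Di-2-ANEPEQ, 5 of the 10 were lower, where 8.95% of all genes were called and 5.48% were called lower. Against Fura-2, 7 of the 10 were lower, where 4.38% of all genes were called and 3.01% were called lower. Nfkbia had log2 differences of -0.43 ± 0.05 against Di-2-ANEPEQ and -0.47 ± 0.05 against Fura-2. Relb had -0.26 ± 0.05 and -0.29 ± 0.05, and Nfkb2 had -0.25 ± 0.04 and -0.25 ± 0.04. These 3 genes were below every library of both other dyes and kept their calls in every alternative. Of all genes 28% did not overlap between DiBASC2 and Di-2-ANEPEQ, and 19.8% between DiBASC2 and Fura-2. Nfkbiz was not called against Di-2-ANEPEQ, whose libraries it overlapped (log2 difference -0.12 ± 0.07, adjusted p = 0.283). Nfkbie and Rel were called in both comparisons, although their libraries overlapped those of Di-2-ANEPEQ. Against Di-2-ANEPEQ, Nfkbie lost its call without Di-2-ANEPEQ replicate 1 or 2 (adjusted p = 0.11 and 0.122) or DiBASC2 replicate 3 (adjusted p = 0.112). There, Rel lost its call without Di-2-ANEPEQ replicate 2 or 3 (adjusted p = 0.205 and 0.0984) or DiBASC2 replicate 1 or 2 (adjusted p = 0.14 and 0.19), and with upper-quartile factors (adjusted p = 0.107). Against Fura-2, Rel lost its call without DiBASC2 replicate 2 (adjusted p = 0.064). Nfkbiz (log2 difference -0.24 ± 0.07, adjusted p = 0.0317) and Rela (-0.16 ± 0.04, adjusted p = 0.0254) were called against Fura-2 but not in every setting. Nfkbiz was not called without DiBASC2 replicate 2 or 3 (adjusted p = 0.157 and 0.0733) or any Fura-2 library (adjusted p = 0.0683, 0.134 and 0.0546 without replicate 1, 2 and 3). Rela was not called without DiBASC2 replicate 2 or 3 (adjusted p = 0.13 and 0.0933) or Fura-2 replicate 2 or 3 (adjusted p = 0.131 and 0.054). Both also missed the threshold with upper-quartile factors (adjusted p = 0.0711 for Nfkbiz and 0.0799 for Rela) and in a fit of only the 2 groups (0.13 and 0.0672).

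The remaining treatments moved few or none of the 10. In the dye Di-2-ANEPEQ, where 3.08% of all genes were called and 2.39% were called lower, Nfkbiz alone was called. It read 12.5, 13.3 and 14.9 CPM and overlapped control (log2 fold change -0.24 ± 0.07, adjusted p = 0.0391). That call was lost without control replicate 2 or 3 (adjusted p = 0.194 and 0.139) or Di-2-ANEPEQ replicate 1 or 2 (adjusted p = 0.2 and 0.143). In Fura-2 edgeR called 0 of the 10, where 0.252% of all genes were called, and DESeq2 also called 0. Rela, at 87.1, 90.6 and 87.9 CPM, had an unadjusted p under 0.05 in edgeR's test. It lay above control, with a log2 fold change of 0.13 ± 0.04 (adjusted p = 0.234). The share of all genes under that threshold, or without overlap with control, is not given here, so nothing is read from it.

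In AAV edgeR called 0 of the 10, where 5% of all genes were called, and DESeq2 also called 0. Nfkbia and Rela had an unadjusted p under 0.05 in edgeR's test. The share of all genes under that threshold, or without overlap with control, is not given here, so nothing is read from it. Nfkbia read 122, 123 and 121 CPM, all above the control libraries (log2 fold change 0.11 ± 0.05, 95% interval 0.02 to 0.21, adjusted p = 0.155). Rela read 84, 90.4 and 89.8 CPM, also above control (log2 fold change 0.12 ± 0.04, 95% interval 0.03 to 0.21, adjusted p = 0.0875). Rela was called without AAV replicate 1 (log2 fold change 0.16, adjusted p = 0.0439). The intervals of all 10 genes in AAV lay between -0.27 and 0.21 on the log2 scale.

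The order of the groups was much the same from gene to gene at the top. LPS had the highest mean for all 10 genes and overlapped neither nanotube group for any, where 33.1% of all genes did not overlap between LPS and (GT)6 SWCNT and 44.1% between LPS and COOH SWCNT. The nanotube groups held the next 2 places for all 10. For Nfkbia, Nfkbib, Nfkb1, Rel and Rela, (GT)6 SWCNT was second and did not overlap COOH SWCNT, the next group. For Nfkbie, COOH SWCNT was second and did not overlap (GT)6 SWCNT. For Nfkbiz, Nfkbid, Nfkb2 and Relb the 2 nanotube groups overlapped. Of all genes 35.5% did not overlap between these groups. Below them, control, Fura-2, Di-2-ANEPEQ and AAV mostly overlapped their neighbours, with means of 209 to 215 CPM for Nfkb1 and 64.5 to 67.7 CPM for Rel. For Nfkbia, AAV at 122 ± 0.967 CPM (SD, n = 3) did not overlap Fura-2 at 115 ± 2.99 CPM (SD, n = 3). For Nfkb2, Fura-2 lay above AAV and AAV above control without overlap, as did Di-2-ANEPEQ above control for Rela. The shares of all genes without overlap between these groups are not given here, so nothing is read from these gaps. DiBASC2 had the lowest mean for 9 of the 10 genes, and AAV had it for Nfkbid. For Nfkbib, Nfkbie, Nfkbiz, Rel and Rela the DiBASC2 libraries overlapped the group next above them.

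Levels of different genes can be compared only per length. CPM was therefore divided by the kilobases of all annotated exons of a gene. This length treats all isoforms as used, and it is 12.061 kb for Nfkb1, so the levels depend on it. In control, Nfkbia was the most abundant at 70 ± 1.68 CPM per kb (SD, n = 3), followed by Rela at 26.3 ± 0.417, and Nfkbiz was the least abundant at 3.17 ± 0.253. In LPS, Nfkbia stood at 454 ± 26.4 CPM per kb, and Nfkbiz at 168 ± 1.54 was the second most abundant. The subunits Rela (41.4 ± 2.04), Nfkb2 (40.7 ± 1.03) and Rel (40.6 ± 2.3) had nearly equal levels in LPS, within the spread of the libraries. In control Rel, at 8.70 ± 0.651 CPM per kb, had been the lowest of the subunits.

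Summed over the 5 subunits, the control level was 83.6 ± 0.373 CPM per kb (SD, n = 3) and the LPS level 175 ± 1.49, with (GT)6 SWCNT at 114 ± 2.85 and COOH SWCNT at 106 ± 1.58. Summed over the 5 IkB genes the control level was 119 ± 1.49 and the LPS level 721 ± 31, with (GT)6 SWCNT at 165 ± 7.01 and COOH SWCNT at 142 ± 4.5. The IkB sum was thus further from control than the subunit sum in LPS. In DiBASC2 the sums were 77.5 ± 1.36 CPM per kb for the subunits and 94.8 ± 5.71 for the IkB genes, and both ranges lay below those of control. The sums are given as a description, with no test.

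Within the subunit sum, c-Rel transcripts gained most. The share of Rel was 10.4% ± 0.739 (SD, n = 3) in control and 23.2% ± 1.45 in LPS, while that of Rela was 31.5% ± 0.599 and 23.6% ± 0.981. The share of Rel was 12.8% ± 0.661 with (GT)6 SWCNT and 11.7% ± 0.355 with COOH SWCNT, where Rela had 32.2% ± 0.605 and 31% ± 0.387. Of the subunits, Relb had a share of 13.1% ± 0.313 in control and 10.8% ± 0.185 in LPS, and Nfkb1 had 20.7% ± 0.211 and 19.2% ± 0.0406. An exact permutation test of 3 against 3 libraries, two-sided, cannot give a p under 0.1, so it could call no share different whatever its size. The difference of Rel in LPS, 12.8 percentage points, reached that exact p = 0.1, and the smallest adjusted value over the 35 exact tests of shares was 0.184. In LPS the share of every subunit lay further from that of control than the SD of either group. The share of Nfkb2 was 24.3% ± 0.06 in control, 23.2% ± 0.476 in LPS and 22.2% ± 0.135 with (GT)6 SWCNT. Within the IkB sum, Nfkbiz made up 2.66% ± 0.18 in control and 23.4% ± 0.956 in LPS, and Nfkbib 20.5% ± 0.326 and 5.43% ± 0.286. Nfkbia held 58.9% ± 0.695 of the IkB sum in control, 62.9% ± 1.04 in LPS and 54.3% ± 1.47 in DiBASC2. The IkB shares were not tested.

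**Figure D4:**
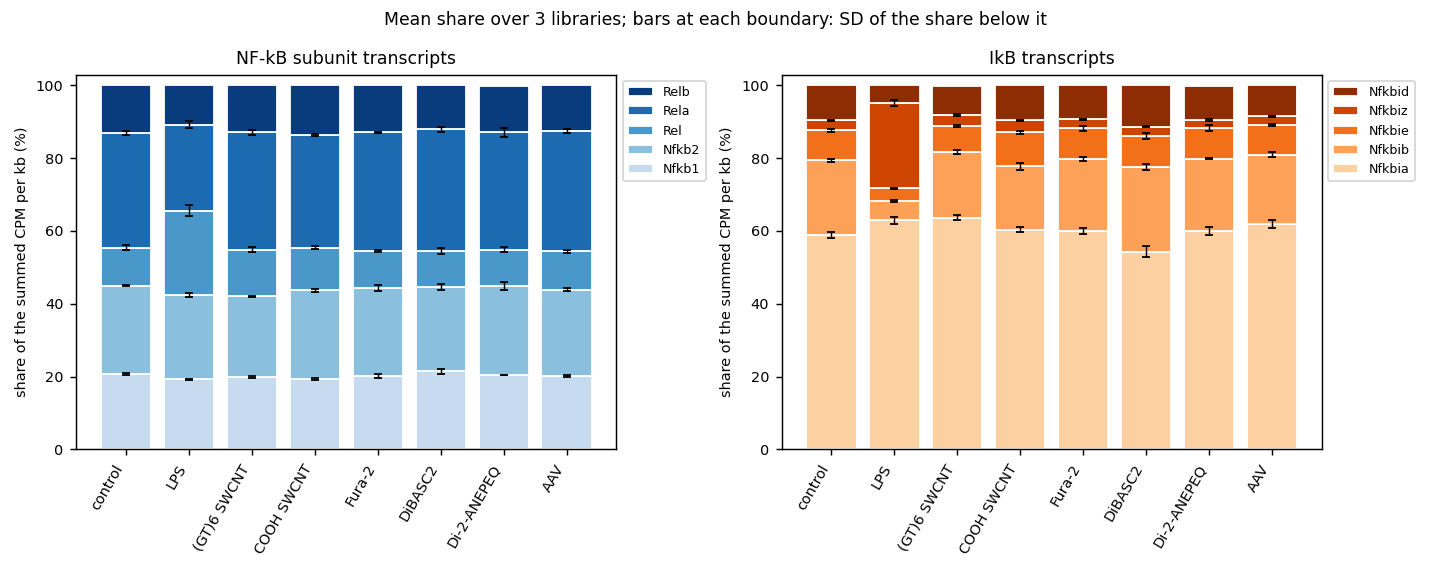
Mean share (3 libraries) of each subunit transcript in the summed subunit level, and of each IkB transcript in the summed IkB level, in percent of CPM per kb for the 8 groups; bars at each boundary are the SD of the share below it. Rel widens from 10.4% in control to 23.2% in LPS, and Nfkbiz from 2.66% to 23.4%, while the share of Rel in the remaining groups lies between 9.92% and 12.8%.

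Other genes of the pathway were read from lists of 15 receptor adaptors and kinases, 10 ubiquitin enzymes, 10 negative regulators, the further nuclear IkB gene Bcl3, and 8 textbook NF-kB targets. All 44 were tested. Beside the list counts in LPS stand the 28.3% of all genes called and 13.8% called higher. Of the 15 adaptors and kinases 6 were higher and 2 were lower, with a median log2 fold change of 0.12 (all genes -0.01). The kinase-like adaptor Irak2 rose by 1.36 ± 0.04 on the log2 scale and the TRIF adaptor gene Ticam1 by 1.04 ± 0.08. Map3k14, which encodes the non-canonical kinase NIK, was lower, at -0.86 ± 0.08. Exons of Irak2 and Map3k14 overlap other annotated genes, so their values are uncertain. Of the ubiquitin enzymes 5 were higher in LPS, led by Birc3 (1.32 ± 0.04), Birc2 (0.97 ± 0.09) and Traf2 (0.41 ± 0.05), which act together in receptor complexes. Of the negative regulators 4 were higher and 1 lower. Tnfaip3, which encodes the deubiquitinase A20, rose from 23.5 ± 0.236 to 216 ± 5.33 CPM (SD, n = 3, log2 fold change 3.19 ± 0.06). Its partner gene Tnip1 rose by 1.44 ± 0.05 and the inactive kinase gene Irak3, which overlaps other genes, by 0.44 ± 0.11.

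Bcl3, whose exons overlap an antisense gene, rose from 14.5 ± 2.08 to 39.8 ± 2.93 CPM in LPS (SD, n = 3, log2 fold change 1.45 ± 0.09). All 8 targets were higher in LPS, with a median log2 fold change of 4.06. The chemokine gene Cxcl2 was highest at 6.51 ± 0.08, then Il1b at 5.59 ± 0.07 and Tnf at 5.01 ± 0.05. Exons of Il1b also overlap an antisense gene. Of the 10 IkB and subunit genes, Nfkbiz, at 5.72 ± 0.05, lay within the range of these cytokine genes. The log2 fold changes of the other 9 were at most 2.70.

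In (GT)6 SWCNT 3 of 15 adaptors and kinases were higher and 3 lower, 2 of 10 ubiquitin enzymes were higher and 1 lower, 2 of 10 negative regulators were higher and 1 lower, and 7 of 8 targets were higher. Of all genes 20.4% were called and 9.9% were called higher, so nothing is read from the counts of ubiquitin enzymes and negative regulators, which are near that share. Ticam1 rose by 0.98 ± 0.08 on the log2 scale, and its direct difference from LPS, -0.06 ± 0.07, was not called (adjusted p = 0.605). Irak2 rose by 0.68 ± 0.04 and Map3k14 was lower, at -0.39 ± 0.08. Fbxw11, which encodes a beta-TrCP protein that recognises phosphorylated IkB, rose by 0.35 ± 0.04, and Birc3 by 0.22 ± 0.04. Tnfaip3 rose by 0.68 ± 0.06 and Tnip1 by 0.21 ± 0.05. The targets were led by Cxcl2 (2.81 ± 0.08), Il1b (2.38 ± 0.08) and Ptgs2 (1.72 ± 0.06), which encodes cyclooxygenase-2. The call of Bcl3 (0.36 ± 0.10, adjusted p = 0.0061) was lost without control replicate 1 (adjusted p = 0.055) or (GT)6 SWCNT replicate 2 (adjusted p = 0.0837). The deubiquitinase gene Cyld was lower, at -0.20 ± 0.06 (adjusted p = 0.00953). Its call was lost without control replicate 1 or 2 (adjusted p = 0.0726 and 0.061) or (GT)6 SWCNT replicate 2 (adjusted p = 0.0662). Rnf31 had -0.24 ± 0.09 (adjusted p = 0.048) and lost its call without any single library of either group (adjusted p from 0.0666 to 0.182) and in 5 other alternatives, among them DESeq2 (adjusted p = 0.0846). Exons of Rnf31 also overlap those of Irf9 on the same strand.

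In COOH SWCNT 2 of 15 adaptors and kinases were higher and 1 lower, 3 of 10 ubiquitin enzymes were higher, 2 of 10 negative regulators were higher and 2 lower, and 6 of 8 targets were higher. Of all genes 20% were called and 9.39% were called higher, and the count of adaptors and kinases is at that background. Ticam1 rose by 0.51 ± 0.08 and Irak2 by 0.46 ± 0.04. Both were lower than in (GT)6 SWCNT by the direct test, in which (GT)6 SWCNT was higher by 0.46 ± 0.07 for Ticam1 and 0.22 ± 0.04 for Irak2. Birc3 rose by 0.32 ± 0.04, Fbxw11 by 0.19 ± 0.04, Tnip1 by 0.34 ± 0.05 and Bcl3 by 0.55 ± 0.09. Tnfaip3 rose by 0.69 ± 0.06, and its difference between the nanotube groups, -0.02 ± 0.06, was not called (adjusted p = 0.874). Il1b (1.52 ± 0.09), Cxcl2 (1.48 ± 0.09) and Ptgs2 (1.06 ± 0.06) led the targets. Smaller calls rested on single libraries. Traf3 (0.14 ± 0.04) was not called without control replicate 1 (adjusted p = 0.0544) or COOH SWCNT replicate 1 (adjusted p = 0.0641), nor with length and GC trends removed (adjusted p = 0.235). Ripk1 (-0.14 ± 0.04) was not called without control replicate 3 (adjusted p = 0.0963) or COOH SWCNT replicate 2 (adjusted p = 0.0902). Commd1 (-0.31 ± 0.09) was not called without control replicate 1 (adjusted p = 0.0562). Exons of Ripk1 and Commd1 also overlap those of other genes.

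In DiBASC2 6 of the 8 targets were lower, with a median log2 fold change of -0.56. Of all genes 5.47% were called and 3.64% were called lower, and nothing is read from the other lists, in which at most 2 genes each were called. Cxcl2 stood at 4.18 ± 0.663 CPM against 13 ± 1.97 CPM in control (SD, n = 3, log2 fold change -1.62 ± 0.13). Ptgs2 had -0.69 ± 0.06 and Il1b -0.67 ± 0.11. Of the negative regulators 1 of 10 was lower, Tnfaip3 at -0.34 ± 0.07 (adjusted p = 0.000852). Of the adaptors and kinases 2 of 15 were lower. Irak2, at -0.22 ± 0.05 (adjusted p = 0.00145), kept its call in every alternative. Chuk, which encodes IKK-alpha, had -0.18 ± 0.05 (adjusted p = 0.0274). It was not called without control replicate 1, 2 or 3 (adjusted p = 0.152, 0.0752 and 0.0617) or DiBASC2 replicate 1 or 3 (adjusted p = 0.05 and 0.268). Of the ubiquitin enzymes 2 of 10 were lower, Birc3 (-0.15 ± 0.04, adjusted p = 0.0387) and Fbxw11 (-0.14 ± 0.04, adjusted p = 0.0219). Birc3 was not called without control replicate 1, 2 or 3 (adjusted p = 0.0575, 0.15 and 0.149) or DiBASC2 replicate 1 or 3 (adjusted p = 0.102 and 0.218). Fbxw11 was not called without control replicate 1, 2 or 3 (adjusted p = 0.0646, 0.101 and 0.0694) or DiBASC2 replicate 1 or 2 (adjusted p = 0.0714 and 0.0628). Chuk, Birc3 and Fbxw11 were also not called with upper-quartile factors (adjusted p = 0.0758, 0.114 and 0.0849), with no low-count filter (0.0523, 0.0745 and 0.0518) or in a fit of only the 2 groups (0.088, 0.0929 and 0.0612). Bcl3 had -0.16 in DiBASC2 and was not called (adjusted p = 0.419).

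**Figure D5:**
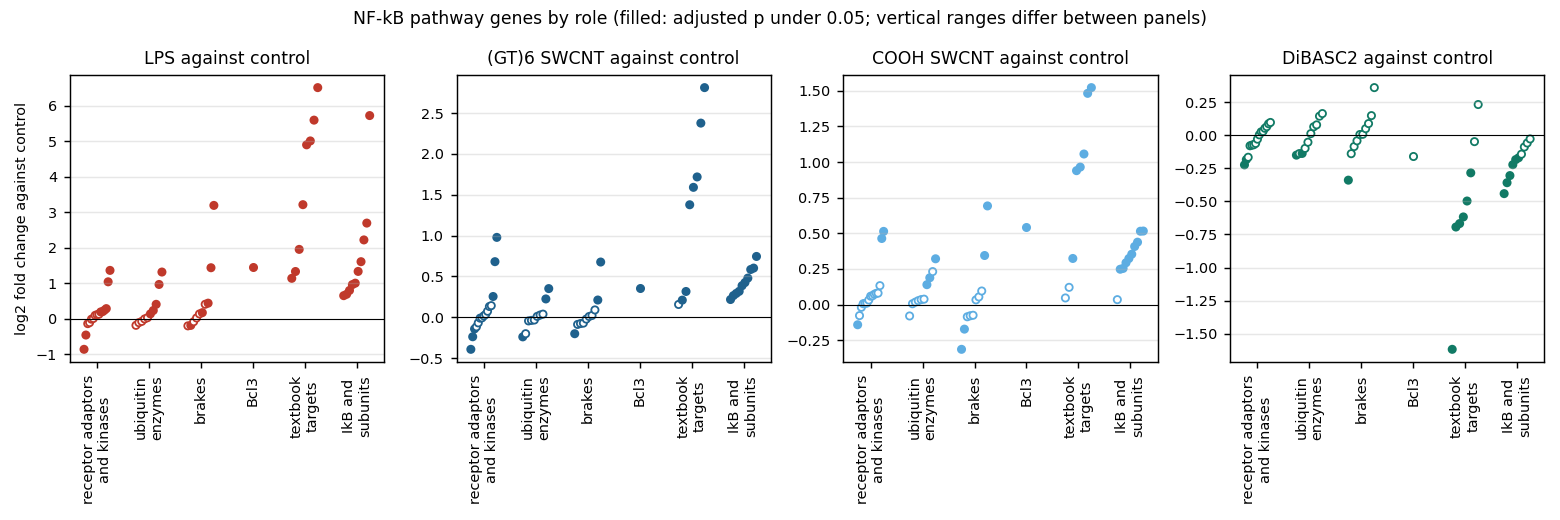
Log2 fold change against control of the 44 other pathway genes, by role, and of the 10 IkB and subunit genes (last column) in LPS, (GT)6 SWCNT, COOH SWCNT and DiBASC2; filled points had an adjusted p under 0.05, and the vertical ranges differ between panels. The target column spreads most in every panel, upward in LPS and the nanotube groups and mostly downward in DiBASC2, where Cxcl2 is at -1.62.

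Genes whose pattern over the 8 groups was most like that of each member were ranked by Pearson's r of the group means of log2 CPM, among 9483 other genes with a mean of at least 5 CPM. The r over 8 groups is a description, in which the high LPS mean carries much weight. Rel was closest to the chemokine gene Cxcl10 (r = 0.9993) and to Ptgs2 (r = 0.9985). Nfkbia was closest to Tnfsf9 (r = 0.9969), which encodes the 4-1BB ligand, and to Acod1 (r = 0.9965), which encodes the itaconate-producing enzyme. Nfkbiz was closest to Zc3h12a (r = 0.9968), which encodes an RNase that degrades inflammatory mRNAs, and to Ikzf1 (r = 0.9956). Their sizes differ, since Zc3h12a had a log2 fold change of 4.08 in LPS and Ikzf1 of 0.64. Nfkbid was closest to Ikbke (r = 0.9962) and Cd40 (r = 0.9951), Nfkb1 to Bsdc1 (r = 0.9982) and Il1a (r = 0.9974), and Nfkb2 to Dyrk2 (r = 0.993) and Mapkapk2 (r = 0.9926). Rela was closest to the histone demethylase gene Kdm6b (r = 0.9927), whose log2 fold changes in the LPS, (GT)6 SWCNT and COOH SWCNT groups were 2.10, 1.52 and 1.02. Relb was closest to Zfp827 (r = 0.9967), Nfkbie to Rc3h2 (r = 0.9933) and Nfkbib to Ptgs2os2 (r = 0.9959).

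These values are of transcripts at a single time point, 2 h, and IkB protein and the location of the subunits were not measured.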

How the data were processed

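Gene-level read counts of 24 libraries were analysed as deposited by the authors, as whole numbers per Ensembl gene. Per the submitters' processing notes STAR 2.5.4b and GRCm38.p6 were used; the counting tool, strand setting and annotation release are not given in the sources used here. GENCODE M21 matched 54809 of 54838 identifiers to symbols, without version suffix. Reads from overlapping genes may therefore be shared.

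Counts were fitted in R 4.3.3 with edgeR 4.0.16: 13116 genes passed filterByExpr, TMM factors were applied, and a quasi-likelihood model with a mean per group (16 residual degrees of freedom) was tested, two-sided, in 12 contrasts. Calls were made where the p adjusted by Benjamini-Hochberg was under 0.05. SE is of the log2 fold change; intervals are 95%. CPM are TMM-scaled. The script was tested on simulated data. Alternatives were other size factors, filters, DESeq2 1.42.0, the replicate number as a block, 2-group fits, removal of length and GC trends, and leaving out each library.

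Members, pathway lists and tests were chosen with earlier results of these data known. All 10 members were named; from each pathway list, up to 3 called genes with the largest absolute log2 fold change in LPS, either nanotube group or DiBASC2, and for each member the 2 genes most like it. Some other pathway values were added for comparison after they were seen, as were the consensus search and the IkB shares. Same-numbered libraries did not deviate together, so the numbers were not used as pairs.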

Additional observations from a re-analysis of the deposited data

How the results depend on the processing

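The calls of the 10 genes in LPS and in COOH SWCNT against control, and in both nanotube groups against LPS, were the same in each of 140 values per contrast under the alternatives. Over all 12 contrasts 1625 of 1680 values stayed called or stayed not called, 46 lost a call, 9 gained one and 0 reversed a called direction. Among the 1625, 34 values called in neither setting changed sign. Leaving out each library gave 9 to 10 members called in (GT)6 SWCNT, 3 to 5 in DiBASC2, 0 to 1 in Di-2-ANEPEQ and 0 to 1 in AAV. It gave 3 to 5 for DiBASC2 against Di-2-ANEPEQ and 4 to 7 for DiBASC2 against Fura-2. In the same fits 1980 to 2576 of all genes were called in (GT)6 SWCNT and 333 to 574 in DiBASC2. In Di-2-ANEPEQ 120 to 418 were called, and in AAV 157 to 769. For DiBASC2 against Di-2-ANEPEQ the number was 610 to 1284, and for DiBASC2 against Fura-2 it was 367 to 472. A fit of only the 2 groups called 0 members in Di-2-ANEPEQ, and removal of length and GC trends called 1 in AAV, Nfkbia (log2 fold change 0.15, adjusted p = 0.0235). The cause of these changes was not tested.

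The replicate numbers were not shown to pair libraries: over 84 same-numbered pairs the correlation of deviations ran from -0.104 to 0.0696, and 5 of 24 libraries correlated best with their own number. With the replicate number as a block, 10 members were called in LPS, 10 in (GT)6 SWCNT, 9 in COOH SWCNT, 5 in DiBASC2, 1 in Di-2-ANEPEQ, and 0 in Fura-2 and in AAV. It called 10 for each nanotube group against LPS, 5 for (GT)6 SWCNT against COOH SWCNT, 4 for DiBASC2 against Di-2-ANEPEQ and 7 for DiBASC2 against Fura-2. The share of all genes called with the block is not given here. These counts are therefore set only beside the member counts of the main fit. Rel was the member that lost a call in DiBASC2 (adjusted p = 0.0516).

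Shares of plain CPM, without division by length, differed from control in LPS by -5.51 percentage points for Nfkb1, -1.99 for Nfkb2, 14.4 for Rel, -4.94 for Rela and -1.94 for Relb. In (GT)6 SWCNT they differed by -1.72 for Nfkb1 and -1.63 for Nfkb2, in COOH SWCNT by -2.42 for Nfkb1, and in DiBASC2 by 1.36 for Nfkb1, 0.881 for Rela and -0.695 for Relb. The directions were those of the shares per kb.

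Of all genes, the number called in Fura-2 moved from 33 to 0 without control replicate 1 or 3 or Fura-2 replicate 2 or 3, and to 106 without Fura-2 replicate 1. Control replicate 2 left out gave 57, no low-count filter 188, the 2-group fit 80 and DESeq2 86. In DiBASC2 it moved from 717 to 333 without control replicate 1 and 459 without DiBASC2 replicate 3. In Di-2-ANEPEQ it moved from 404 to 120 and 165 without control replicate 1 and 3, to 129 and 190 without Di-2-ANEPEQ replicate 2 and 3, and to 814 in the 2-group fit. In AAV it moved from 656 to 273 and 157 without control replicate 1 and 3, and to 177 and 278 without AAV replicate 2 and 3. For DiBASC2 against Di-2-ANEPEQ it moved from 1174 to 610 and 677 without Di-2-ANEPEQ replicate 1 and 2, and to 652 and 754 without DiBASC2 replicate 1 and 2. For DiBASC2 against Fura-2 it moved from 574 to 367 without DiBASC2 replicate 2 and 375 without Fura-2 replicate 2. Depth limits the members little, since the smallest count was 264.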
